A study of Mus musculus with 6 samples.

Results

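Apelin, the angiopoietins and their receptors were followed in whole lung as 9 genes chosen by name, and with earlier results of these samples known. They are the apelin receptor Aplnr with its ligands Apln and Apela, the ligands Angpt1, Angpt2 and Angpt4, the receptor kinases Tek (Tie2) and Tie1, and the phosphatase Ptprb (VE-PTP). All 9 were found among the 40842 named genes of the 6 tables. The tables hold polyA RNA sequencing of whole lung from female wild-type C57BL/6N mice. The 3 control libraries came from untreated mice and the 3 irradiated libraries from mice given one dose of 20 Gy of 9 MeV electrons, all labelled as the 100 day time point. The age of the mice and the part of the body exposed are not in the labels, nor is it said that the libraries of a group are separate mice. The comparison asks how lung RNA differs late after exposure. Because the genes were chosen with this contrast in view, their differences between the groups are a description and support nothing further.

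Apelin is a secreted peptide that acts through Aplnr, a G protein-coupled receptor of endothelium, and Apela (Elabela) is a second peptide ligand of that receptor. In lung capillaries Aplnr marks general capillary cells, while Apln marks aerocytes, the thin capillary cells of gas exchange. Angpt1, made mostly by cells around the vessel, activates the Tie2 kinase on endothelium and favours quiet, tight vessels. Angpt2, made by endothelium itself, can block or weakly activate Tie2, Tie1 is a co-receptor without a firmly assigned ligand, and Ptprb removes phosphate from Tie2.

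RefSeq promoter windows (GRCm38.p6) were matched for 5 of the 9 genes: Apln, Apela, Angpt4, Tek and Tie1. The 250 bases before the start are shown for Tek and Tie1, receptors that were lower in each irradiated library, and for Apln, the apelin gene whose level differed most between irradiated libraries. Capitals mark the 4-letter core bound by ETS factors, a family that controls many endothelial genes, searched as GGAA on both strands (TTCC on the strand shown). The windows lie at chr4:94739039-94739288 (Tek, plus strand), chr4:118489850-118490099 (Tie1, minus strand) and chrX:48034854-48035103 (Apln, minus strand).
Tek: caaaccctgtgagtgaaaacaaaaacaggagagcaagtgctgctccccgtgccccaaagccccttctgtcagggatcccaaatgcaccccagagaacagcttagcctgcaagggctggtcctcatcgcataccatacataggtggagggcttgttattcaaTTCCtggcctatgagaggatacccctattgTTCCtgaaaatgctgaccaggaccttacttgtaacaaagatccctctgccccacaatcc
Tie1: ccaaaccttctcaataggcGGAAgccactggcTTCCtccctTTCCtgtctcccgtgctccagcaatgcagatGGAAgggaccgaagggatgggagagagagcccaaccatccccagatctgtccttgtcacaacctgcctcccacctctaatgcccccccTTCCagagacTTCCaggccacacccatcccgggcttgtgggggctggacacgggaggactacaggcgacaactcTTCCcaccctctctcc
Apln: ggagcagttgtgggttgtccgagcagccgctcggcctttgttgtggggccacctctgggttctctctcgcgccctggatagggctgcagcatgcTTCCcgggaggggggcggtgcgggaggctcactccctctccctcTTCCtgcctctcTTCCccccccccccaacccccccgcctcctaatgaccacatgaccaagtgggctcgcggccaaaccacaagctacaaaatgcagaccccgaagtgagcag
The Tek window holds 2 matches, the Tie1 window 7 and the Apln window 3, while 93.4% of 32851 windows of this length hold at least 1 and the median window holds 3. The longer GATA letters AGATAA (in 9.99% of windows), the forkhead letters GTAAACA (3.17%) and the hypoxia letters ACGTG (16.6%) were in none of these 3 windows on either strand. The windows differ in composition, with 51.2% G and C in Tek, 60.4% in Tie1 and 65.2% in Apln. A match or its lack describes these letters alone.

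Levels are the deposited FPKM, fragments per kilobase of transcript scaled to the mapped fragments of the library. The depth implied by FPKM and coverage was 5.11 to 10.4 Gb of aligned sequence per library, highest in irradiated 2. It is approximate, since 35.6 to 36.6% of the named entries used for it shared the ratio it was taken from. The FPKM of all named genes summed to 321039 to 350820 in the controls and to 298352 to 312652 in the irradiated libraries. Changes as deposited therefore include this difference in sum. The tissue label fits its markers in that 7 alveolar type 2 genes summed to 18079 to 20041 FPKM in the controls and to 11443 to 12459 FPKM in the irradiated libraries. Neutrophil markers summed to 76.3 to 506 FPKM in the controls and to 220 to 4761 FPKM in the irradiated libraries, with irradiated 2 the highest. Control 2 was the highest of all libraries in cardiac muscle markers (442 FPKM, against 15.4 to 216 in the others) and in adipose markers (216 FPKM, against 13.2 to 134). A log2 change is irradiated minus control of log2(FPKM + 1), with its standard error from limma, and a gene is called at a Benjamini-Hochberg adjusted p under 0.05 over the 13908 genes whose mean reached 1 FPKM. The change understates the ratio of genes with low FPKM.

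Aplnr fell in irradiated lung, to 16.3% of its control mean. Tek and Tie1 lay below the controls in every irradiated library without being called, and Apln and Angpt1 did not share that direction. Of the 9 genes, 7 passed the filter, all 7 with a mean of at least 1 FPKM in both groups, and Apela and Angpt4 lay below it. Among the 7, Aplnr, Tek, Tie1 and Angpt2 were lower in each irradiated library than in any control. That makes 4 genes whose groups do not overlap, where 14.6% of all genes tested were lower in this way. None of the 7 was higher in each irradiated library, against 9.91% of all genes tested, and in Apln, Angpt1 and Ptprb the groups overlapped. Only Aplnr was called, where limma called 0.18% of all genes tested, or 0.115% as lower.

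**Figure D1:**
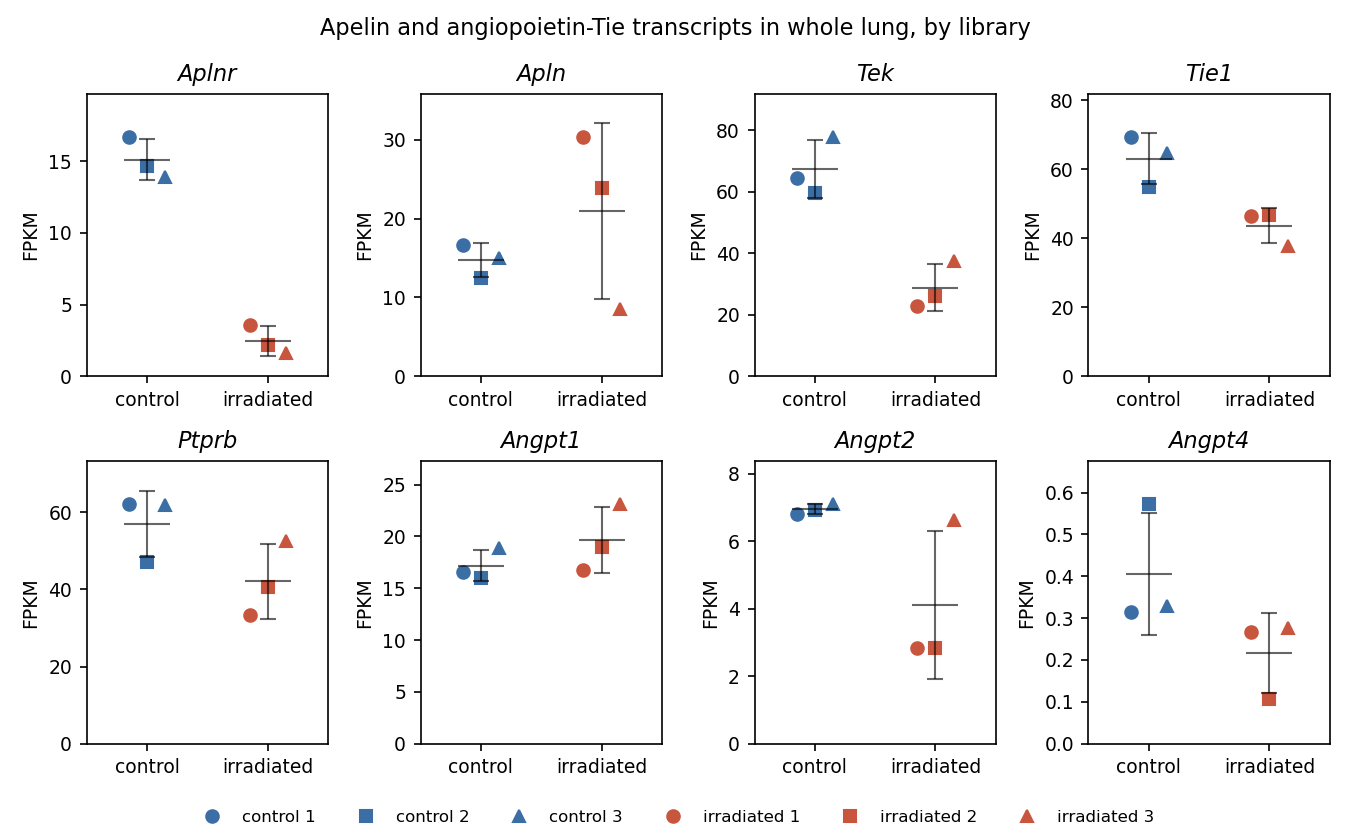
FPKM (vertical axes, each starting at 0) of 8 of the genes in the 3 control (blue) and 3 irradiated (red) libraries, with the marker shape giving the replicate number and the bar the group mean ± SD. Aplnr lies at 13.9 to 16.7 in controls and at 1.60 to 3.60 after irradiation, while Apln lies on both sides of the controls in the irradiated libraries.

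The order of levels per length differed between the groups. In control lung Tek (67.3 ± 9.44 FPKM; SD, n = 3 here and throughout), Tie1 (63.0 ± 7.42) and Ptprb (57.1 ± 8.56) led and did not differ beyond their spread. Angpt1 (17.2 ± 1.52), Aplnr (15.1 ± 1.44) and Apln (14.7 ± 2.12) formed a second level, again within their spread, and Angpt2 followed at 6.94 ± 0.152. Angpt4 and Apela were the lowest at 0.405 ± 0.145 and, for Apela, 0.0450 FPKM in control 1 and 0 in the others. In irradiated lung Tie1 (43.6 ± 4.99) and Ptprb (42.2 ± 9.73) stood above Tek (28.8 ± 7.68), although the ranges of Tek (22.8 to 37.4 FPKM) and Ptprb (33.3 to 52.6 FPKM) overlapped. Aplnr, on a par with Angpt1 and Apln in controls, was below Angpt1, Apln and Tek in all irradiated libraries.

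Aplnr lies on chromosome 2, 84966704 to 84970267 (GRCm39, plus strand). Control 1, 2 and 3 held 16.7, 14.7 and 13.9 FPKM of it, while irradiated 1, 2 and 3 held 3.60, 2.19 and 1.60 FPKM. Every irradiated library was far below every control, and the irradiated mean was 83.7% lower than the control mean. Its log2 change was −2.25 ± 0.21 (limma adjusted p = 0.0298). The deposited coverage of the gene was 82.0 to 105 reads per base in the controls and 20.9, 22.7 and 8.16 in irradiated 1 to 3, so that the lowest level also has the least sequence behind it. The call ended, while the change itself stayed between −2.48 and −2.07, without control 1 (limma adjusted p = 0.203), control 2 (0.121), control 3 (0.104) or irradiated 2 (0.0828). It also ended when all genes above 0 were tested without a filter (0.149).

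Tek, the gene of the Tie2 kinase, lies on chromosome 4, 94627322 to 94763213. Its levels were 64.5, 59.7 and 77.9 FPKM without irradiation, against 22.8, 26.1 and 37.4 FPKM with it. The groups did not overlap, and irradiated 3 was the nearest to the controls. The irradiated mean was 57.3% lower, with a log2 change of −1.22 ± 0.19 that was not called (limma adjusted p = 0.0700). Without irradiated 3 the change was −1.42 and was called (limma adjusted p = 0.0324). With FPKM rescaled to a common sum the change was −1.10 (limma adjusted p = 0.0770).

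Tie1, the co-receptor, lies on the same chromosome, 118328388 to 118347046 on the minus strand. It was at 69.5, 54.9 and 64.7 FPKM in the controls and at 46.4, 46.6 and 37.9 FPKM in the irradiated libraries. The groups did not overlap, but here irradiated 3 was the farthest from the controls. The log2 change was −0.52 ± 0.13 (limma adjusted p = 0.125), less in size than that of Tek. With FPKM rescaled to a common sum it was −0.39 (limma adjusted p = 0.217).

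Ptprb, the phosphatase that acts on Tie2, lies on chromosome 10, 116111407 to 116225443. Its levels were 62.1, 47.2 and 61.9 FPKM in control lung, against 33.3, 40.7 and 52.6 FPKM after irradiation. Irradiated 3 lay above control 2, so the groups overlapped. The log2 change was −0.44 ± 0.19 (limma adjusted p = 0.286), and −0.29 without irradiated 1. With FPKM rescaled to a common sum it was −0.31 (limma adjusted p = 0.422).

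Of the apelin ligands, Apln lies on chromosome X, 47114023 to 47123730. It was at 16.7, 12.5 and 15.1 FPKM in the controls and at 30.4, 24.0 and 8.57 FPKM in the irradiated libraries. Irradiated 1 and 2 were above every control and irradiated 3 was below every control, and the irradiated SD (11.2 FPKM) was more than the difference between the means (14.7 and 21.0 FPKM). The log2 change of 0.32 ± 0.43 (limma adjusted p = 0.738) turned to −0.018 without irradiated 1 and was 0.84 without irradiated 3. Its coverage was 43.7 to 248 reads per base.

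Apela (chromosome 8, 65481069 to 65489988) was listed at 0 in 4 of the 6 libraries. It was at 0.0450 FPKM in control 1 and at 0.169 FPKM in irradiated 1, where its coverage was 0.282 and 0.982 reads per base. At that coverage no difference could be read.

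Among the angiopoietins, Angpt1 (chromosome 15, 42288063 to 42540373) was at 16.6, 16.0 and 18.9 FPKM in the controls and at 16.8, 19.0 and 23.1 FPKM in the irradiated libraries. The groups overlapped, with irradiated 3 the highest of all. The log2 change was 0.17 ± 0.13 (limma adjusted p = 0.526), and it moved to 0.057 when irradiated 3 was left out, to 0.28 when irradiated 1 was left out and to 0.30 with FPKM rescaled to a common sum. Of the 5 genes of the Tie arm that were tested it alone had a positive change, and no library of either group was below 16.0 FPKM.

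Angpt2, the context-dependent partner of Angpt1 at Tie2, lies on chromosome 8, 18740279 to 18791578. It was at 6.79, 6.93 and 7.09 FPKM in the controls, a tight group, and at 2.83, 2.83 and 6.63 FPKM in the irradiated libraries. Irradiated 1 and 2 were far below the controls, whereas irradiated 3 was only just below them. The log2 change was −0.72 ± 0.27 (limma adjusted p = 0.240), and without irradiated 3 it was −1.05 and was called (0.0324). The span of Mcph1, on the opposite strand and at 0.0878 to 1.28 FPKM, overlaps that of Angpt2. Spans alone were compared and the strand setting is not given. Whether reads of one gene were counted for the other was not tested.

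Angpt4, a further Tie2 ligand, was scarce at 0.314, 0.572 and 0.328 FPKM in the controls and at 0.267, 0.107 and 0.277 FPKM in the irradiated libraries (chromosome 2, 151753127 to 151787257). Its coverage was 1.11 to 3.88 reads per base, and it was not tested, although the groups did not overlap. As a share of the summed FPKM of the 3 angiopoietins, Angpt1 made up 70.0, 68.1 and 71.8% in the controls and 84.4, 86.6 and 77.0% in the irradiated libraries. Angpt2 made up 28.6, 29.4 and 26.9% and then 14.2, 12.9 and 22.1%.

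Ligands were then set against receptors as ratios of FPKM within a library, which do not depend on how the library was scaled. Apln to Aplnr was 0.998, 0.849 and 1.08 in the controls and 8.46, 10.9 and 5.36 in the irradiated libraries. The ratio was close to even in every control and above 5 in every irradiated library. Irradiated 3 had the lowest Apln and also the lowest Aplnr. The log2 change of Aplnr alone was −2.25, and that of Apln, whose groups overlapped, was 0.32. The ratio thus mostly restates the level of Aplnr. On the log2 scale the mean ratio was −0.04 ± 0.18 in controls and 2.98 ± 0.52 in irradiated lung, an 8.14-fold difference. With 1 FPKM added to both genes the log2 difference was 2.58 in place of 3.02.

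Angpt1 to Tek was 0.258, 0.269 and 0.243 in the controls and 0.738, 0.727 and 0.618 in the irradiated libraries, a difference of 1.43 between the mean log2 ratios. All irradiated libraries were above all controls. The log2 change of Tek alone was −1.22, without overlap, and that of Angpt1, whose groups overlapped, was 0.17. This ratio thus mostly restates the level of Tek. Angpt2 to Tek was 0.105, 0.116 and 0.0911 in the controls and 0.125, 0.108 and 0.177 in the irradiated libraries. These groups overlapped, and the mean log2 ratios differed by 0.37.

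The balance of the angiopoietins, Angpt2 to Angpt1, was 0.409, 0.432 and 0.375 in the controls and 0.169, 0.149 and 0.287 in the irradiated libraries, lower in each of them. Angpt2 alone was also lower in each (log2 change −0.72, against 0.17 for Angpt1). The components on endothelium also differed among themselves. Ptprb to Tek was 0.964, 0.791 and 0.795 in the controls and 1.46, 1.56 and 1.41 in the irradiated libraries, without overlap and with little spread after irradiation. Tek alone already did not overlap, with a log2 change of −1.22 against −0.44 for Ptprb. Tie1 to Tek was 1.08, 0.920 and 0.831 in the controls and 2.04, 1.78 and 1.01 in the irradiated libraries, where irradiated 3 lay among the controls.

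**Figure D2:**
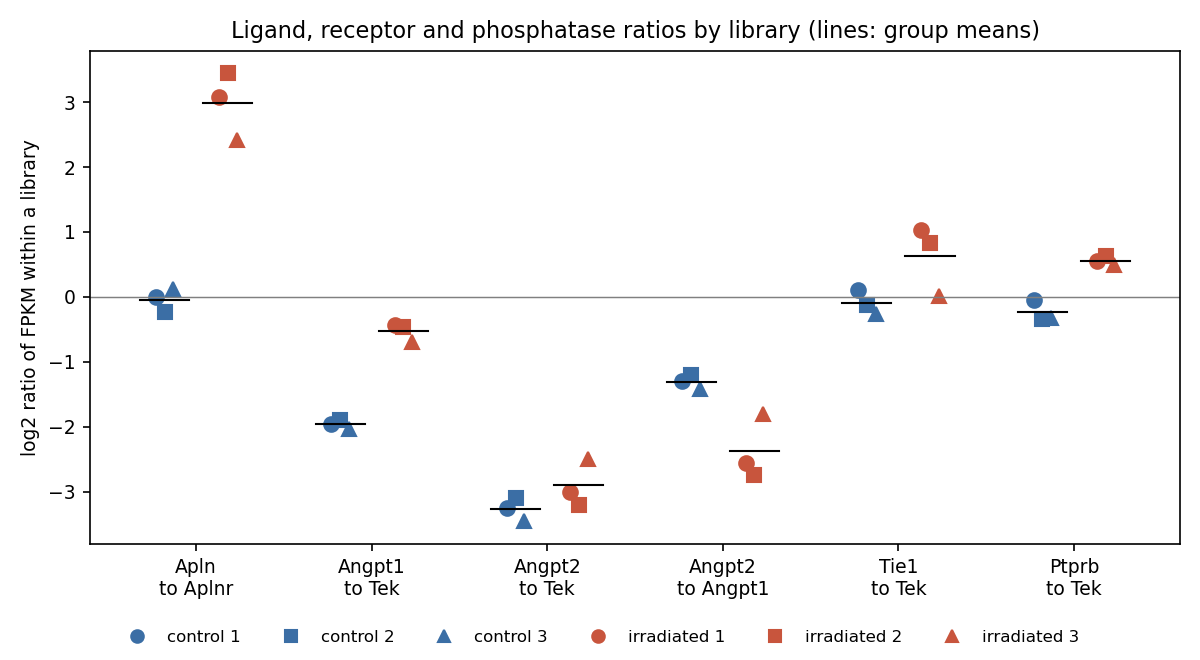
Log2 ratio of FPKM (vertical axis) of 6 gene pairs within each control (blue) and irradiated (red) library, with lines at the group means. Apln to Aplnr stands at −0.24 to 0.11 in controls and at 2.42 to 3.45 after irradiation, and Angpt2 to Tek overlaps between the groups.

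All receptors here sit on endothelium, so endothelial markers were read beside them. In bulk lung, fewer endothelial cells and less RNA per cell cannot be told apart. Of 12 pan-endothelial markers, 10 had negative changes with a median of −0.25 (median of all genes tested −0.03). None was called by limma and none was listed at 0, while 3 were at an unadjusted p under 0.05 (2466 of 13908 over all genes). Their summed level was 921 to 1203 FPKM in the controls and 814 to 1061 FPKM in the irradiated libraries. The groups did not overlap in 4 of the 12, each lower in irradiated lung (14.6% of all genes tested): Sox17, a transcription factor (13.0 ± 3.14 against 6.51 ± 1.41 FPKM), Egfl7, a secreted endothelial protein (log2 change −0.46, limma adjusted p = 0.201), Esam and Ecscr. Cdh5 (VE-cadherin) was at 137 ± 16.6 against 126 ± 24.3 FPKM and Pecam1 at 174 ± 15.8 against 177 ± 30.8 FPKM, both with overlapping groups.

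Capillary markers were read by cell type. The 6 general capillary markers, the cells that carry Aplnr, summed to 406 to 560 FPKM in the controls and to 281 to 426 FPKM in the irradiated libraries (4 of 6 negative, median −0.61). Kit, a receptor kinase of these cells, was at 30.7 ± 3.32 against 17.9 ± 0.710 FPKM (limma adjusted p = 0.0565), and Gpihbp1, which holds lipoprotein lipase in capillaries, at 102 ± 14.1 against 65.0 ± 22.8 FPKM (0.263). Cd93 (61.1 ± 14.7 against 65.5 ± 27.2 FPKM) and Adgrl3 (4.60 ± 1.05 against 5.94 ± 2.57 FPKM) had positive changes, with overlapping groups. The 7 aerocyte markers summed to 306 to 350 FPKM and then to 344 to 422 FPKM (6 of 7 positive, median 0.17). None of either list was called by limma or listed at 0, with 3 and 1 at an unadjusted p under 0.05 (2466 of 13908 over all genes). The part of cell numbers in the receptor levels was not tested.

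Relative to the mean log2 level of the 12 pan-endothelial markers in the same library, Aplnr was −1.76 ± 0.22 in controls and −3.75 ± 0.39 in irradiated lung, a difference of −1.99 against −2.25 as deposited. Tek went from 0.32 ± 0.09 to −0.64 ± 0.46, a difference of −0.96, and each irradiated library was again below each control. For Tie1 the difference was −0.26, about the same size as the −0.26 of the marker mean itself, and the groups still did not overlap. For Ptprb (−0.18) and Angpt2 (−0.46) the groups overlapped on this scale, with irradiated 3 above all controls in both. Angpt1, no endothelial gene, was 0.44 higher relative to these markers, without overlap. Its own change was 0.17 with overlapping groups, so most of that difference is the −0.26 of the marker mean.

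**Figure D3:**
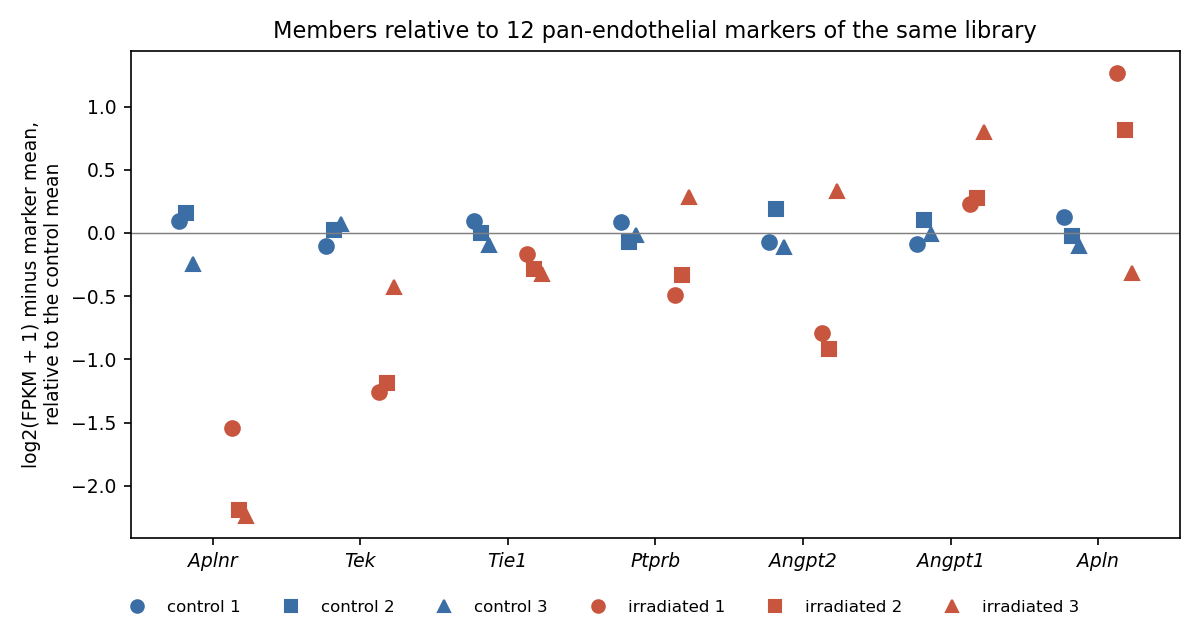
Log2(FPKM + 1) of 7 genes minus the mean of 12 pan-endothelial markers in the same library, drawn relative to the control mean (vertical axis) for control (blue) and irradiated (red) libraries. Aplnr, Tek and Tie1 stay below all controls in each irradiated library, while irradiated 3 stands apart from irradiated 1 and 2 in Tek, Ptprb, Angpt2, Angpt1 and Apln.

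Sources of the ligands outside endothelium were read in the same way. Pericytes, a main source of Angpt1, had 9 markers that summed to 91.1 to 110 FPKM in the controls and to 90.2 to 109 FPKM in the irradiated libraries. Platelets and megakaryocytes, which also carry Angpt1, had 8 markers that summed to 84.3 to 142 FPKM and then to 25.1 to 77.5 FPKM. Of these, 8 of 8 changes were negative (7761 of 13908 over all genes tested). Alveolar fibroblast markers summed to 2040 to 2300 FPKM and then to 1425 to 2084 FPKM, with 9 of 9 changes negative. Scn7a, 1 of them, was called lower by limma, where 0.115% of all genes tested were. None of these markers was listed at 0. Angpt1 was not lower in any irradiated library than in the lowest control beside these values, and their part in its level was not tested.

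Downstream of and around the receptors, 46 genes in 6 lists were read, of which 42 passed the filter. None was called by limma, where 0.18% of all genes tested were. At an unadjusted p under 0.05 there were 14 of the 42 (2466 of 13908 over all genes). Of the 42, 6 were lower and 13 higher in each irradiated library, where 14.6% and 9.91% of all genes tested were. Positive changes were found in 26 of the 42 (6147 of 13908 over all genes), with a median log2 change of 0.07 (−0.03 over all genes).

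Of 2 enzymes that process or degrade apelin, Furin, a convertase that matures propeptides, was at 21.1 ± 0.628 against 30.7 ± 3.41 FPKM (limma adjusted p = 0.0855) and higher in each irradiated library. Mme (neprilysin), a peptidase that inactivates apelin, was at 21.7 ± 1.58 against 17.8 ± 1.85 FPKM (limma adjusted p = 0.238) and lower in each of them.

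Of the 11 genes of apelin receptor signalling, 9 had positive changes (median 0.16) and 3 were higher in each irradiated library (9.91% of all genes tested). These were Hdac4, a class II histone deacetylase (3.12 ± 0.102 against 4.95 ± 0.837 FPKM; limma adjusted p = 0.124), Arrb2, an arrestin that uncouples receptors (13.6 ± 0.314 against 20.4 ± 6.13 FPKM; 0.253), and the transcription factor Mef2a (28.0 ± 0.705 against 31.3 ± 2.45 FPKM; 0.392). Arrb2 was highest in irradiated 2 (26.8 FPKM), the library with the highest neutrophil markers, and the part of those cells was not tested. The other arrestin, Arrb1, was at 39.3 ± 2.07 against 35.9 ± 3.04 FPKM.

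Of the 18 genes of Tie2 signalling, 12 had positive changes (median 0.08), with 8 higher and 2 lower in each irradiated library (9.91% and 14.6% of all genes tested). Grb14, an adaptor that binds receptor kinases, was at 24.3, 24.1 and 22.8 FPKM in the controls and at 12.1, 11.4 and 17.8 FPKM in the irradiated libraries (log2 change −0.77 ± 0.16; limma adjusted p = 0.0962). Foxo3, a forkhead factor held back by Akt, was at 13.9 ± 0.753 against 23.4 ± 4.93 FPKM (0.70 ± 0.15; limma adjusted p = 0.102). Without irradiated 3 both were called, Grb14 at −0.96 (limma adjusted p = 0.0324) and Foxo3 at 0.85 (0.0413). Svep1, a matrix protein that binds angiopoietins, was at 5.87 ± 0.908 against 9.11 ± 0.894 FPKM (limma adjusted p = 0.115). Foxo1, the forkhead factor best known in endothelium, was at 10.5 ± 0.149 against 11.1 ± 0.576 FPKM, and Akt1 at 56.5 ± 2.61 against 63.9 ± 3.47 FPKM.

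The 3 endothelial genes that both pathways can drive varied within the groups. Klf2, a flow-induced factor, was at 60.2, 50.3 and 124 FPKM in the controls and at 58.6, 93.0 and 114 FPKM in the irradiated libraries, and Klf4 was at 35.0 ± 16.2 against 39.4 ± 9.52 FPKM. Nos3, the endothelial nitric oxide synthase, was at 5.57 ± 0.638 against 5.88 ± 1.93 FPKM, lowest in irradiated 3 (3.65 FPKM). In all 3 genes the groups overlapped.

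The 5 junction partners of Ptprb all had negative changes (7761 of 13908 over all genes tested), with a median of −0.13. Those of Cdh5 (−0.13) and Fgd5 (−0.014) were small, with overlapping groups. Jup (plakoglobin) was at 67.6 ± 3.58 against 56.0 ± 1.98 FPKM (limma adjusted p = 0.195) and Ctnnb1 (β-catenin) at 223 ± 8.55 against 195 ± 13.9 FPKM (0.360). Each was lower in every irradiated library, as were 14.6% of all genes tested. Ctnnd1 (p120 catenin) was at 64.6 ± 2.45 against 60.0 ± 2.15 FPKM, with overlap. Epithelium makes these catenins too.

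Of the 7 angiopoietin-like genes, relatives that do not bind Tie2, 3 passed the filter. Angptl4, an inhibitor of lipoprotein lipase, was at 4.80, 14.9 and 17.4 FPKM in the controls and at 52.3, 60.5 and 29.8 FPKM in the irradiated libraries. The groups did not overlap, irradiated 3 was the lowest of its group as it was for Apln, and the log2 change was 1.96 ± 0.49 (limma adjusted p = 0.137). Angptl2 was at 22.5 ± 1.61 against 16.4 ± 4.06 FPKM (limma adjusted p = 0.232) and Angptl8 at 1.69 ± 0.233 against 1.60 ± 0.449 FPKM.

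**Figure D4:**
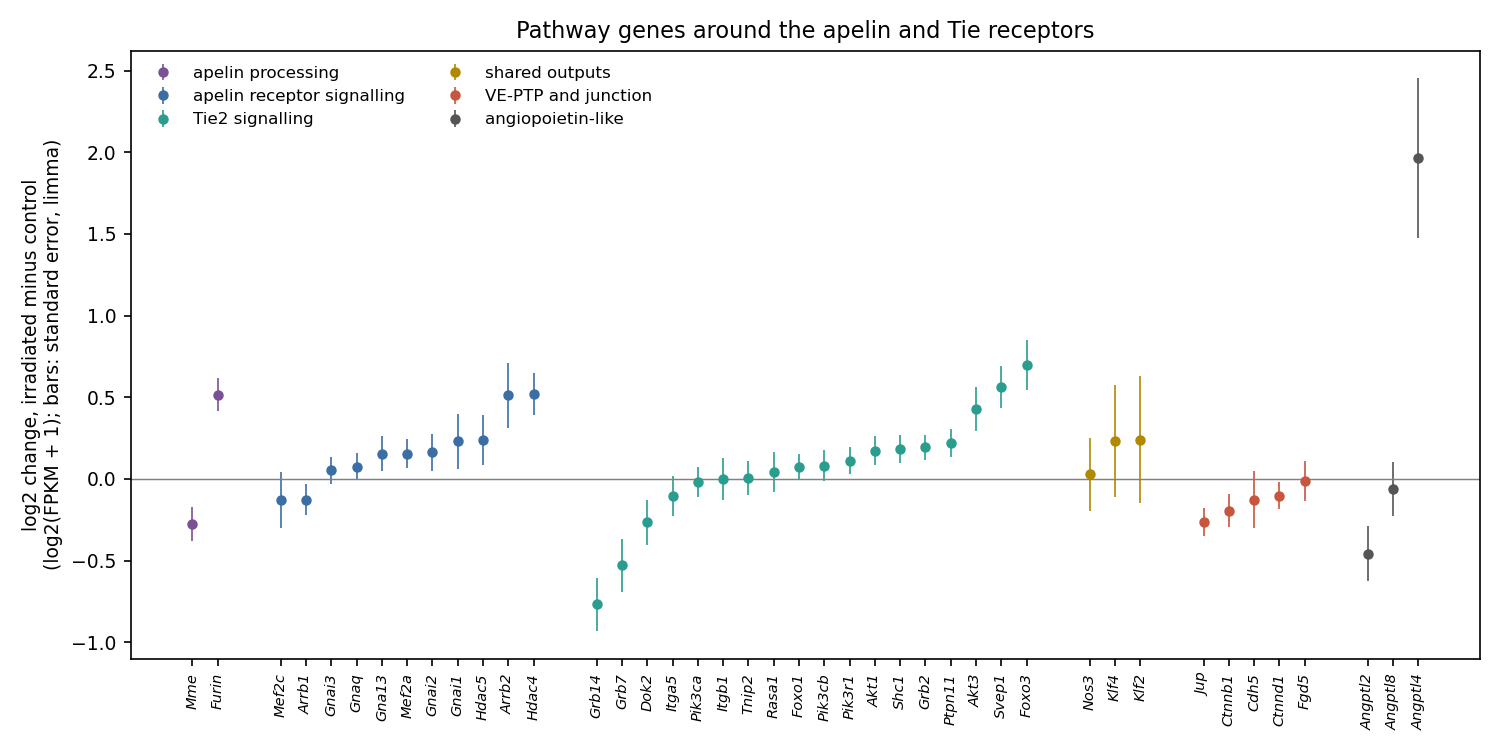
Log2 change (irradiated minus control of log2(FPKM + 1), bars are limma standard errors) of the 42 pathway genes that passed the filter, by list and in order of change. Angptl4 stands highest at 1.96 and Grb14 lowest at −0.77, and none was called.

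Genes with the likest pattern to each member were taken by Pearson's r of log2(FPKM + 1) over the 6 libraries, which share a group difference, so these r are a description. For Aplnr they were Tra2a (r = 0.996), Sytl4 (0.995) and Fbxl7 (0.994), and for Tek they were Tmem42 (0.996), Mpnd (0.996) and Wscd1 (0.995). Tra2a was at 58.4, 54.2 and 55.5 FPKM in the controls and at 40.8, 36.7 and 36.1 FPKM in the irradiated libraries. Tie1 was nearest to Map1s (0.996), Tead2 (0.994) and Il17rd (0.993). Such values were common, with r over 0.95 in 133 genes for Aplnr, 109 for Tek and 41 for Tie1.

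Ptprb was nearest to Tbc1d10a (1.00), Izumo4 (0.995) and Tal1 (0.994), the last a transcription factor from the pan-endothelial list. Angpt2 was nearest to Thra (0.998), Arglu1 (0.998) and Srsf2 (0.996). Thra showed the same pair of low libraries, at 45.4, 45.2 and 45.0 FPKM in the controls and at 28.7, 28.6 and 45.1 FPKM in irradiated 1 to 3. Apln was nearest to Gpr27 (0.995), Noct (0.990) and Foxm1 (0.989), and Angpt1 to Crebrf (0.988), Slc25a29 (0.977) and Tbc1d1 (0.976). Genes with r over 0.95 numbered 40 for Ptprb, 126 for Angpt2, 35 for Apln and 19 for Angpt1.

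Among the members themselves, Tek and Angpt2 (r = 0.90), Tek and Ptprb (0.88) and Aplnr and Tie1 (0.92) had the likest patterns. Apln and Angpt2 ran opposite (r = −0.84), with Apln highest and Angpt2 lowest in irradiated 1 and 2, and Apln lowest and Angpt2 near the controls in irradiated 3. Over 6 libraries in 2 groups these values describe the libraries alone.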

How the data were processed

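Whole lung RNA of 3 control and 3 irradiated libraries was analysed. The authors deposited a table of FPKM, coverage and TPM per gene for each library, per the file headers. Tools listed in the submitters' processing notes are fastp, STAR 2.7.6a and DESeq2, with the build GRCm39, listed without roles. Which of them made the tables, and with which strand setting, is not given in the sources used here. FPKM were summed per Gene ID over entries with a gene name. The deposited coverage (signal per base) was used for depth, taken from the most frequent ratio of FPKM to coverage in a library, and to show the sequence behind a value. Read counts were not analysed here, so values carry no counting interval. The TPM column was not used, as with the unnamed entries it does not sum to its nominal total.

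Genes whose mean reached 1 FPKM were fitted with limma 3.58.1 (R 4.3.3; trend and robust variances) on log2(FPKM + 1) with the group as the single term, with Benjamini-Hochberg adjustment over all genes tested. The fit was run on simulated data with planted 4-fold changes and independent noise per gene, as a check of the fit alone. It does not measure how sure the calls in these data are. The members, lists and tests were chosen with earlier results of these data known. Named genes are all members, the 3 genes with the smallest p per pathway list, and the 3 likest genes by r per member, predicted and clone names left out. One gene of the pathway lists is not reported here and was left out of their counts. Further genes of the lists were named after their values were seen: Arrb1, Foxo1, Akt1, Cdh5, Pecam1, Sox17, Egfl7, Esam, Ecscr, Kit, Gpihbp1, Cd93, Adgrl3 and Scn7a, and in the closing section Gja5, Dll4, Efnb2, Bmx, Nr2f2, Amigo2, Ccl21a, Mmrn1, Lamc3 and Vwf. Fgd5 and, in the closing section, Slc6a2 were also named in this way. As nothing says that libraries are separate mice, the p-values speak only to library spread, possibly technical. Alternatives were other pseudocounts (0.1 and 0.5), filters (none, 5 FPKM), scalings, variance estimates, the replicate block and leaving out each library. The comparison with pan-endothelial markers was added after the data were seen. Promoters are from RefSeq (GRCm38.p6), and gene positions (GRCm39) are those of the files, counted from 1. Chromosome numbers were assigned to the files' sequence names through gene symbols in the RefSeq table.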

Additional observations from a re-analysis of the deposited data

How the results depend on the processing

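Of the 7 members fitted, all kept the sign of their change under each alternative except Apln, which was −0.018 without irradiated 1 and ranged to 0.84 without irradiated 3. The count of genes called was 25, with 9 higher and 16 lower. It was 0 without a filter (3531 at an unadjusted p under 0.05), 38 at 5 FPKM, 13 with common-sum scaling (7 higher), 10 with upper-quartile scaling (5 higher), 11 with median-ratio scaling and 0 to 118 without single libraries: 0 without control 1 or 3 (1910 and 1645 at an unadjusted p under 0.05), 1 without control 2, 3 without irradiated 2, 101 without irradiated 1 and 118 without irradiated 3. Common-sum scaling moved the median change of all genes from −0.03 to 0.08. Under it the change of Aplnr was −2.18 (limma adjusted p = 0.0377) and that of Angpt2 −0.62 (0.260). The single member called, Aplnr, was not called without a filter (0 members called, limma adjusted p = 0.149) or without control 1, 2 or 3 or irradiated 2, and 0 to 3 members were called over the libraries left out. Pathway genes called were 0 to 2 in the same way, the 2 being Grb14 and Foxo3 without irradiated 3. In limma the replicate block left 0 genes and 0 members called (1623 genes at an unadjusted p under 0.05; Aplnr adjusted p = 0.145). Libraries of the same number did not deviate together (correlations −0.17, −0.54 and −0.28). With 3 libraries per group these correlations cannot exclude a pairing, and the labels give only a shared number. The log2 difference of Apln to Aplnr was 2.58 with 1 FPKM added to both genes. Without single libraries the differences were 2.79 to 3.31 (Apln to Aplnr), 1.39 to 1.52 (Angpt1 to Tek), 0.16 to 0.52 (Angpt2 to Tek), −1.35 to −0.88 (Angpt2 to Angpt1), 0.52 to 1.03 (Tie1 to Tek) and 0.75 to 0.89 (Ptprb to Tek). The cause of these movements was not tested. Depth limits Apela and Angpt4, with at most 3.88 reads per base.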

Other observations

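Other vessel types of the lung were read from marker lists beside the apelin and Tie genes. Arterial markers had 5 of 6 negative changes, with a median of −0.57. Gja5, a gap junction protein of arteries, was at 12.6, 9.06 and 12.2 FPKM in the controls and at 5.03, 3.98 and 8.20 FPKM in the irradiated libraries. Dll4, a Notch ligand, was at 28.5, 21.7 and 24.8 FPKM and then at 10.8, 15.7 and 19.5 FPKM, again without overlap. Efnb2, an ephrin of arteries, was at 36.0 ± 5.68 against 24.0 ± 10.2 FPKM and Bmx, a kinase, at 4.33 ± 0.856 against 4.48 ± 1.89 FPKM, both with overlap. In Gja5, Dll4 and Efnb2, as in Tek, Ptprb and Angpt2, irradiated 3 was the library of its group nearest to the controls.

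Vein and lymphatic markers were mixed, with 2 of 4 and 3 of 4 negative changes among those tested (7761 of 13908 over all genes). The medians were −0.10 and −0.02. Nr2f2, a factor of veins and lymphatics, was at 18.1 ± 1.58 against 14.5 ± 1.22 FPKM and Amigo2 at 10.6 ± 0.355 against 8.34 ± 0.569 FPKM, each lower in every irradiated library. Slc6a2, also of the venous list, had a positive change (14.6 ± 3.45 against 18.2 ± 5.05 FPKM), with overlap. Vwf, a clotting protein stored with the Angpt2 protein, was at 55.3 ± 4.77 against 59.5 ± 1.24 FPKM. Its RNA did not share the low values of Angpt2 RNA in irradiated 1 (60.4 FPKM) and 2 (60.0 FPKM). The stored proteins were not measured here. Ccl21a, a lymphatic chemokine with near-identical gene copies and so uncertain, was at 58.7 ± 6.63 against 34.4 ± 5.69 FPKM, while Mmrn1 was at 4.69 ± 0.155 against 4.61 ± 0.610 FPKM. Pericyte markers had 5 of 9 negative changes, with a median of −0.06, and the groups overlapped in 8 of them. The exception, Lamc3, a laminin chain, was at 1.31 ± 0.283 against 4.45 ± 1.54 FPKM and higher in every irradiated library (limma adjusted p = 0.0864). None of these genes was called by limma. At an unadjusted p under 0.05 there were 2 of 6 arterial, 2 of 4 venous, 1 of 4 lymphatic and 1 of 9 pericyte markers tested. Over all genes these were 2466 of 13908, and 14.6% were lower and 9.91% higher in each irradiated library.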
